A study of Mus musculus with 6 samples.

Results

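The transcripts of 38 genes for copying DNA and dividing cells were compared in adipose tissue of KM mice, an outbred strain. Control mice gave 3 libraries, and mice given RAS (radix Angelica sinensis, a medicinal root) in the feed at 10.00 g/kg BW gave another 3. The genes were chosen by symbol, and 38 of 38 were found among the 19928 genes of the expression table. They were split by role into 17 replication genes, 12 mitosis genes and 9 cyclins, kinases and inhibitors of the G1 phase, the stage of growth before DNA synthesis. By its title the study concerns obesity under high-fat feeding, but the labels do not say which feed the control mice received. Fat depot, sex and age are not stated in the labels. Nor do they say whether 1 library stands for 1 mouse or several, and the p-values therefore describe the scatter of these libraries, which may be technical.

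A cell enters division when D-type cyclins with Cdk4, and then cyclin E with Cdk2, inactivate the retinoblastoma protein and free the E2F factors, which switch on the genes of DNA synthesis. The MCM ring is loaded on origins by Cdc6 and Cdt1, is activated by Cdc45 and the GINS complex, and opens the helix for the polymerases. Cyclin A, cyclin B and Cdk1 then drive mitosis, with the kinases Plk1, Aurka and Aurkb building the spindle. Mature fat cells have left the cycle, and in adipose tissue dividing cells are mostly found among precursor, endothelial and immune cells, so these transcripts are low in whole-tissue RNA. In such RNA, fewer dividing cells and less RNA per dividing cell cannot be told apart.

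The upstream sequences below are shown because they hold letters of known cell-cycle motifs in genes of replication and of mitosis. RefSeq promoter windows (GRCm38.p6) matched 31 of the 38 genes. In the 250 bases before the start, the E2F motif, searched on both strands as TTTCCCGC, TTTCGCGC, TTTGCCGC or TTTGGCGC, was in 5 of 14 replication genes (35.7%), 1 of 10 mitosis genes and 1 of 7 G1 genes, against 3.9% of 9649 tested genes with a window. The CHR element, searched on both strands as TTTGAA, a motif of genes expressed late in the cycle, was there in 4 of 10 mitosis genes (40%), 2 of 14 replication genes and 0 of 7 G1 genes, against 12.9%. With the 50 bases after the start included, E2F matches were in 7 of 14 replication genes, Mcm3 and Cdt1 being added, against 4.61% of tested genes. CHR matches were then in 7 of 10 mitosis genes, with Plk1, Aurka and Cenpa added, against 14.2%. The NF-Y motif CCAAT, on both strands, was in the 250 bases of 9 of 10 mitosis, 10 of 14 replication and 3 of 7 G1 genes, against 40.5%. Capitals mark these 3 motifs on either strand in the 250 bases before the start, written 5′ to 3′ on the gene's strand, and matches can overlap, as in the run of Mcm5 that holds 2 E2F matches. A match describes the letters and is no proof of binding.
Mcm5 (chr8:75109259-75109508, plus strand): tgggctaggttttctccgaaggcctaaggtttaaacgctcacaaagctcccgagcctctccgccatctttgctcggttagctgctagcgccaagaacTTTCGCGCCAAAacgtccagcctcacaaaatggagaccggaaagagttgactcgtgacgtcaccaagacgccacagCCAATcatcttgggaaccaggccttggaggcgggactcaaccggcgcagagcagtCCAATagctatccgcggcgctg
Mcm6 (chr1:128359706-128359955, minus strand): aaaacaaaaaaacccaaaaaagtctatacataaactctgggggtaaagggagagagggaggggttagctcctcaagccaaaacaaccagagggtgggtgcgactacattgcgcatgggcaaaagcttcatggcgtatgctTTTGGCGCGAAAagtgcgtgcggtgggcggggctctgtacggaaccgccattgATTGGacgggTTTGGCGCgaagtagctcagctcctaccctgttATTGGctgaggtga
Cdk1 (chr10:69352913-69353162, minus strand): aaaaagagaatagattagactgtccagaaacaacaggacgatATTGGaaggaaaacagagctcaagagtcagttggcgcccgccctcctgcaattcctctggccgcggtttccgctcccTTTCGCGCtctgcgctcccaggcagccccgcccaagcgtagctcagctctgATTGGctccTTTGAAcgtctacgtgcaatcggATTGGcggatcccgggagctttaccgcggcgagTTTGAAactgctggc
Top2a (chr11:99024190-99024439, minus strand): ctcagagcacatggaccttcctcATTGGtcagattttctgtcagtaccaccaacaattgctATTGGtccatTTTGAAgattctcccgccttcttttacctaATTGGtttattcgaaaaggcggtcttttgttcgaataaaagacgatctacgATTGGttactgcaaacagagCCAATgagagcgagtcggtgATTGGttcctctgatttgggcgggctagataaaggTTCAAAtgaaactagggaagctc
Mki67 (chr7:135716380-135716629, minus strand): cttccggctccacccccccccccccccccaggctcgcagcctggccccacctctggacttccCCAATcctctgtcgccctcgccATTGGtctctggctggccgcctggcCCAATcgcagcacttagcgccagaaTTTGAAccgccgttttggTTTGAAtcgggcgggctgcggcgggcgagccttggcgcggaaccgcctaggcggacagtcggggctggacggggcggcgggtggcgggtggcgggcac
Mcm5 and Mcm6, subunits of the helicase ring, held E2F matches and no CHR match in these bases. Top2a and Mki67 held CHR matches and no E2F match, and Cdk1 held both. Of the ring subunits not printed, Mcm2 held a CHR match and no E2F match, Mcm3 held neither and Mcm7 held an E2F match.

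Between 14379617 and 15748690 reads were assigned to genes in each library, as worked out from the scaled counts. Values are FPKM, fragment counts scaled to transcript length and library size, so levels can be compared between genes. Fat cell markers were high in every library: the 8 listed genes, Adipoq and Fabp4 among them, summed to 27757 to 34787 FPKM in control and 38302 to 54453 with RAS. Of the 6 libraries, control 1 stood apart in markers of other cells, and RAS 3 did in some. Skeletal muscle markers were highest in control 1 for 7 of 7 genes, with a sum of 235 FPKM there, 150 and 88.9 in controls 2 and 3, and 46.6 to 78.7 in the RAS libraries, and Myh4 was at 0 in control 3, RAS 1 and RAS 3. Mesothelial markers were lowest there for 6 of 6, with a sum of 31.0 against 99.1 to 249 elsewhere. T and NK cell markers summed to 4.98 in control 1 and to 7.78 to 15.4 elsewhere, and control 1 was the lowest library for 5 of 8. RAS 3 was the highest for 8 of 8 of them, against 23.8% of all genes tested. Its summed neutrophil and red blood cell markers, 20.2 and 2772 FPKM, were the highest as well.

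Not one of the 38 genes passed the test of RAS against control, and replication genes had lower means with RAS more often than higher ones. The test was limma's moderated test on log2(FPKM + 1) for the 12606 genes with a mean of at least 1 FPKM, and every log2 difference below is RAS minus control on that scale. Of the 38 genes 33 were tested, and 5 (Cdc6, Pole, Ccnb1, Bub1 and Plk1) lay under the minimum. At an adjusted p under 0.05 the count was 0 of the 33, and 0 of all 12606 genes (0%). At an unadjusted limma p under 0.05 it was 3 of the 33, Ccnd1, Mcm2 and Cdkn1a, against 1294 genes or 10.3% of all. All 3 were lower with RAS, where the share of all genes was 6.41% lower and 3.86% higher. Control and RAS values did not overlap for 3 of the 33, Mcm2, Mcm7 and Cdkn1a, against 17.9% of all genes. These 3 were again lower with RAS, and the share of all genes was 12.5% lower and 5.42% higher. The count at that p, 9.09% of the 33, was near its background, and the count without overlap, also 9.09%, was below its background.

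**Figure D1:**
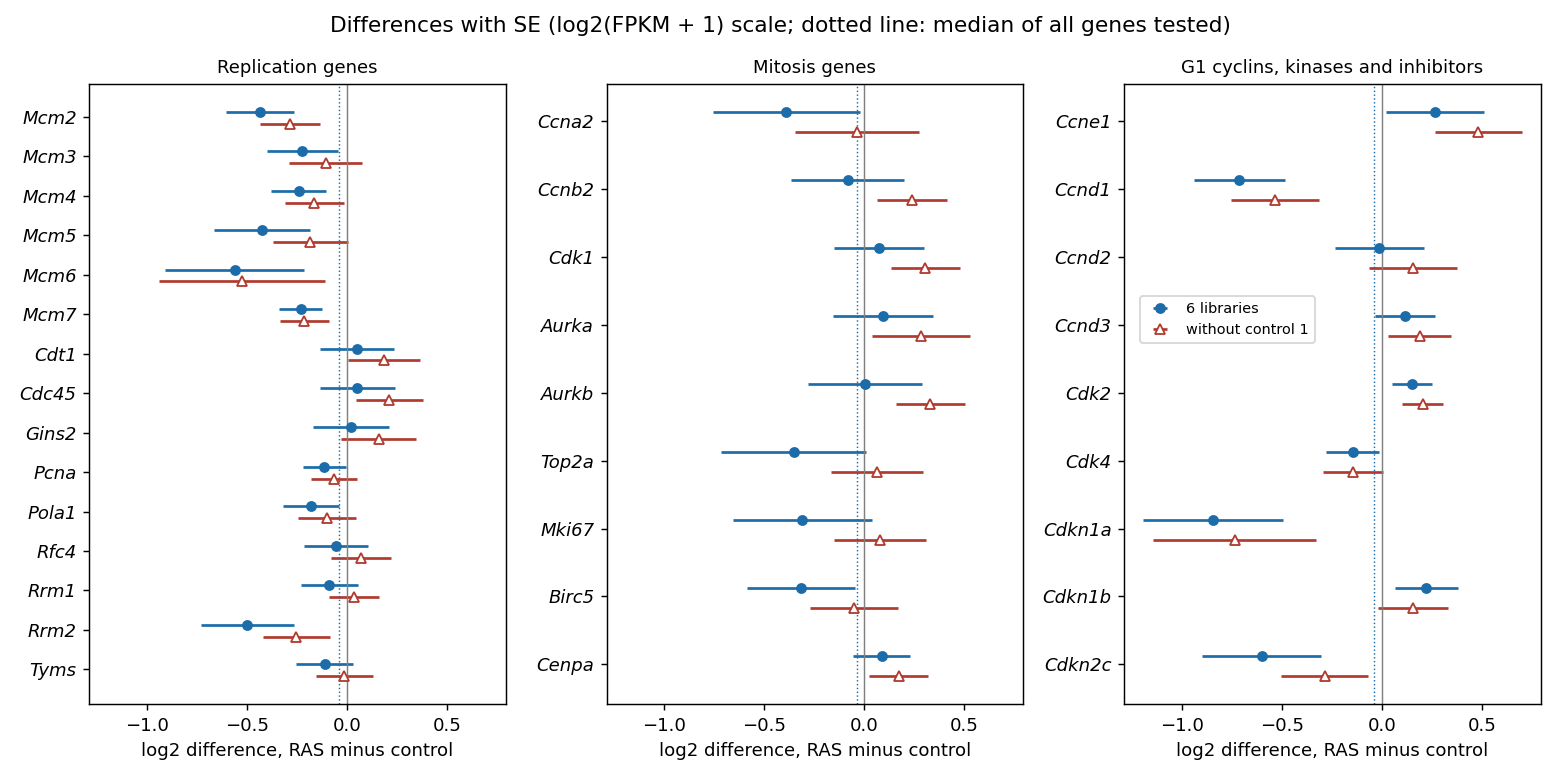
Log2 difference (RAS minus control) with its SE for the 33 tested genes, in the 3 role groups, with 6 libraries (filled circles) and without control 1 (open triangles); the dotted line is the median of all genes tested, -0.04. Replication genes lie mostly left of 0, and mitosis genes shift right when control 1 is left out.

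Of the 15 tested replication genes 12 had a negative difference and 3 a positive one, with a median of -0.18 against -0.04 over all genes tested, of which 57.0% were negative. Without control 1 the count was 10 of 15 and the median -0.10. Without control 1 and RAS 3 together it was 9 of 15 with a median of -0.094, near the 55.4% of all genes that were then negative. With median-ratio size factors it stayed at 12 of 15, while the share of all genes was 49.9%. Control 1 was the highest library for 15 of the 17 replication genes, against 30.0% of all genes tested, and its skeletal muscle markers were the highest too; their part in these values was not tested. All 6 subunits of the MCM ring, the helicase that unwinds DNA ahead of the fork, had lower means with RAS, by 0.22 to 0.56 on the log2 scale. The ring as a whole summed to 31.9, 22.5 and 29.0 FPKM in controls 1, 2 and 3. With RAS it summed to 21.7, 21.8 and 19.5, below every control sum, though control 2 and RAS 2 lay close. The sum was not tested, and of the single subunits only Mcm2 and Mcm7 had groups apart. Of all genes tested, 12.5% had every RAS value below every control.

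Mcm2 was at 3.53, 2.04 and 2.60 FPKM in the controls and at 1.78, 1.86 and 1.53 with RAS, 2.72 ± 0.754 and 1.72 ± 0.173 (SD, n = 3 each). All RAS libraries lay below all controls. The difference was -0.43 ± 0.17 (SE; limma adjusted p = 0.453), and -0.28 without control 1. The Mcm2 gene (chr6:88842557-88898780 in the table) shares that locus with Podxl2 and Gm15612, so reads of the neighbours may be mixed. Mcm7 was at 7.84, 6.86 and 8.22 FPKM in control and 6.13, 6.16 and 6.77 with RAS, again with no overlap, though the gap between the nearest libraries was small (log2 -0.23 ± 0.11, limma adjusted p = 0.513). Mcm7 was the highest of the 6 subunits in every library.

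Among the replication genes, Mcm6 varied most within groups. It was at 5.56, 3.75 and 6.80 FPKM in control and at 3.30, 5.75 and 1.61 with RAS, so RAS 2 lay among the controls and RAS 3 was the lowest library (log2 -0.56 ± 0.35, limma adjusted p = 0.616). Its difference was -0.21 without RAS 3 and -0.90 without RAS 2. Mcm5 was at 4.10, 1.72 and 2.52 in control and 2.18, 1.56 and 1.5 with RAS, with overlapping groups (log2 -0.42 ± 0.24), and its difference was -0.18 without control 1 and -0.64 without control 2. Both genes carry the E2F matches shown above, and their highest library was control 1 for Mcm5 and control 3 for Mcm6. Mcm3 (log2 -0.22) and Mcm4 (-0.24) overlapped between groups as well, and Mcm3 stood at -0.083 without RAS 2, -0.11 without control 1 and -0.37 without RAS 3.

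Of the factors that load and start the ring, the 3 that were tested had differences near 0. Cdt1, a loading factor, was at 1.01 to 2.00 FPKM in control and 1.27 to 1.79 with RAS (log2 0.05). Cdc45 (log2 0.05) and the GINS subunit Gins2 (0.02), which complete the active helicase, differed by less than their SE of 0.19 each. Gins2 shares its locus in the table with Gse1. Cdc6, the other loading factor, was low at 0.536, 0.274 and 0.305 FPKM in control and 0.211, 0.211 and 0.207 with RAS. Its RAS values lay below all controls, but at a mean of 0.291 FPKM it was not tested.

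Pcna, the ring that clamps polymerases to DNA, was by far the most abundant replication gene and the steadiest. It was at 36.2, 33.4 and 32.1 FPKM in control and 31.2, 29.8 and 32.8 with RAS (log2 -0.11 ± 0.11, limma adjusted p = 0.742; -0.066 without control 1), and its highest library was 1.21 times its lowest. Pcna also works in DNA repair, and its level did not follow the mitosis markers: the ratio of Pcna to Mki67 ran from 11.4 in control 1 to 60.2 in RAS 3. The polymerase subunits were low. Pola1, the catalytic subunit of the priming polymerase, was at 1.71 to 2.25 in control and 1.37 to 1.79 with RAS (log2 -0.18, and -0.10 without control 1). Pole, that of the leading-strand polymerase, was at 0.680 to 1.11 and 0.558 to 0.825. The clamp loader subunit Rfc4 had a log2 difference of -0.06 and shares its locus with the abundant Eif4a2.

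Among the genes of nucleotide supply, Rrm2, the subunit that limits ribonucleotide reductase in S phase, was at 3.80, 1.80 and 1.97 FPKM in control and 1.82, 1.31 and 1.17 with RAS. Control 1 stood out, and RAS 1 lay between controls 2 and 3. The difference was -0.50 ± 0.23 (limma adjusted p = 0.516), and -0.25 without control 1. The large subunit Rrm1 was at 5.40 to 7.89 in control and 5.70 to 6.58 with RAS (log2 -0.09). Tyms, thymidylate synthase, stood at -0.11, and at -0.013 without control 1 and -0.21 without control 2.

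**Figure D2:**
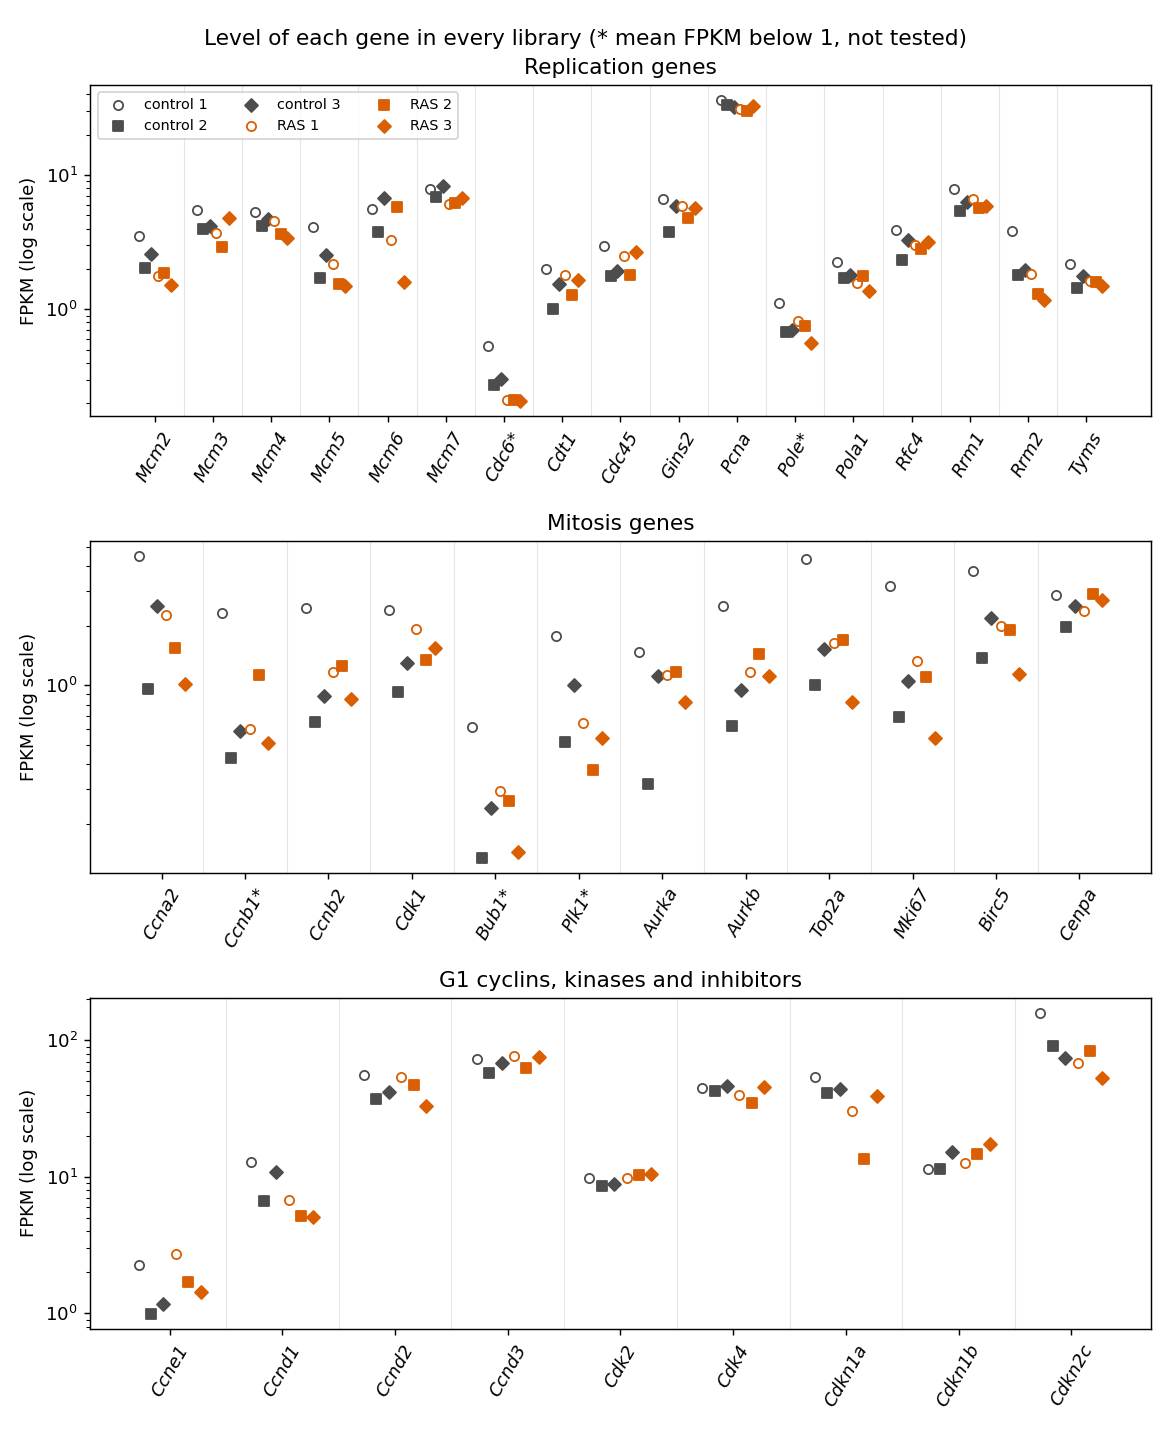
FPKM on a log axis for each of the 38 genes in every library (grey, control; orange, RAS; circle, square and diamond, libraries 1, 2 and 3; a star marks a mean below 1 FPKM, not tested). Control 1, the open grey circle, is the highest library for 11 of 12 mitosis genes and 15 of 17 replication genes.

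Among mitosis genes, as among replication genes, control 1 was mostly the highest library, and the groups overlapped for each of the 9 tested. Control 1 was the highest library for 11 of 12 mitosis genes, against 30.0% of all genes tested, and control 2 was the lowest for 8 of 12, against 20.3%. The 12 genes summed to 32.1 FPKM in control 1, 9.61 in control 2 and 15.8 in control 3, and to 16.5, 16.1 and 11.7 with RAS, so the RAS libraries lay inside the range of the controls. Of 9 tested genes 5 had a negative difference (median -0.08), against 57.0% of all genes tested. Without control 1 the count was 2 of 9 with a median of 0.17, against 54.2% of all genes. Without control 1 and RAS 3 together it was 0 of 9 with a median of 0.25, against 55.4%. In control 1 skeletal muscle markers were also highest (7 of 7 genes) and mesothelial markers lowest (6 of 6), as were 5 of 8 T and NK cell markers. The part of these markers in the values of the mitosis genes was not tested.

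Mki67, the usual marker of cycling cells, was at 3.17, 0.691 and 1.05 FPKM in control and 1.33, 1.10 and 0.544 with RAS. Top2a, the topoisomerase that untangles chromosomes, was at 4.34, 1.01 and 1.52 and at 1.63, 1.68 and 0.829. For both genes control 1 was above the other 5 libraries and RAS 3 was the lowest. Their differences were -0.31 ± 0.35 and -0.35 ± 0.36 (limma adjusted p = 0.781 and 0.756), and became 0.08 and 0.06 without control 1.

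Ccna2, cyclin A of S phase and early mitosis, ran from 0.963 to 4.46 FPKM in control and from 1.02 to 2.25 with RAS (log2 -0.39 ± 0.37). Its difference was -0.037 without control 1, -0.22 without RAS 3 and -0.78 without control 2. It shares its locus with Exosc9. Cyclin B transcripts were lower: Ccnb2 was at 2.44, 0.655 and 0.882 in control and 1.16, 1.24 and 0.855 with RAS (log2 -0.08), and turned to 0.24 without control 1. Ccnb1, at 2.31 FPKM in control 1 and 0.432 to 1.12 elsewhere, was not tested. Their partner Cdk1 was at 2.39, 0.926 and 1.29 in control and 1.92, 1.35 and 1.54 with RAS (log2 0.07 ± 0.23). The cyclins A and B and Cdk1 shared the same extremes, highest in control 1 and lowest in control 2 in 4 of 4 cases.

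The spindle kinases followed the same order at the top. Aurka was at 1.47, 0.320 and 1.12 FPKM in control and 1.13, 1.16 and 0.822 with RAS (log2 0.09), and Aurkb at 2.51, 0.624 and 0.944 and at 1.16, 1.44 and 1.11 (log2 0.00 ± 0.28). Plk1, the kinase of spindle assembly and exit from mitosis, was at 1.76, 0.520 and 0.999 and at 0.645, 0.373 and 0.545. The checkpoint kinase Bub1 was the rarest member, at 0.136 to 0.615 FPKM. The scaled count behind these genes fell to 10.9 in the lowest library of Aurka, 11.7 for Plk1 and 12.8 for Bub1, so counting noise alone is large there.

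Birc5, survivin of the chromosomal passenger complex, was at 3.76, 1.37 and 2.17 FPKM in control and 1.99, 1.91 and 1.14 with RAS (log2 -0.32 ± 0.27, limma adjusted p = 0.715), and its difference was -0.052 without control 1, -0.16 without RAS 3 and -0.55 without control 2. Cenpa, the histone variant of centromeres, was the exception among mitosis genes: it ran only from 1.96 to 2.87 over the 6 libraries, with the highest value in RAS 2 (log2 0.09 ± 0.14). The spread within groups, as the SD of log2 values about the group means, had a median of 0.41 over the tested mitosis genes, 0.22 over replication genes and 0.19 over all genes tested.

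**Figure D3:**
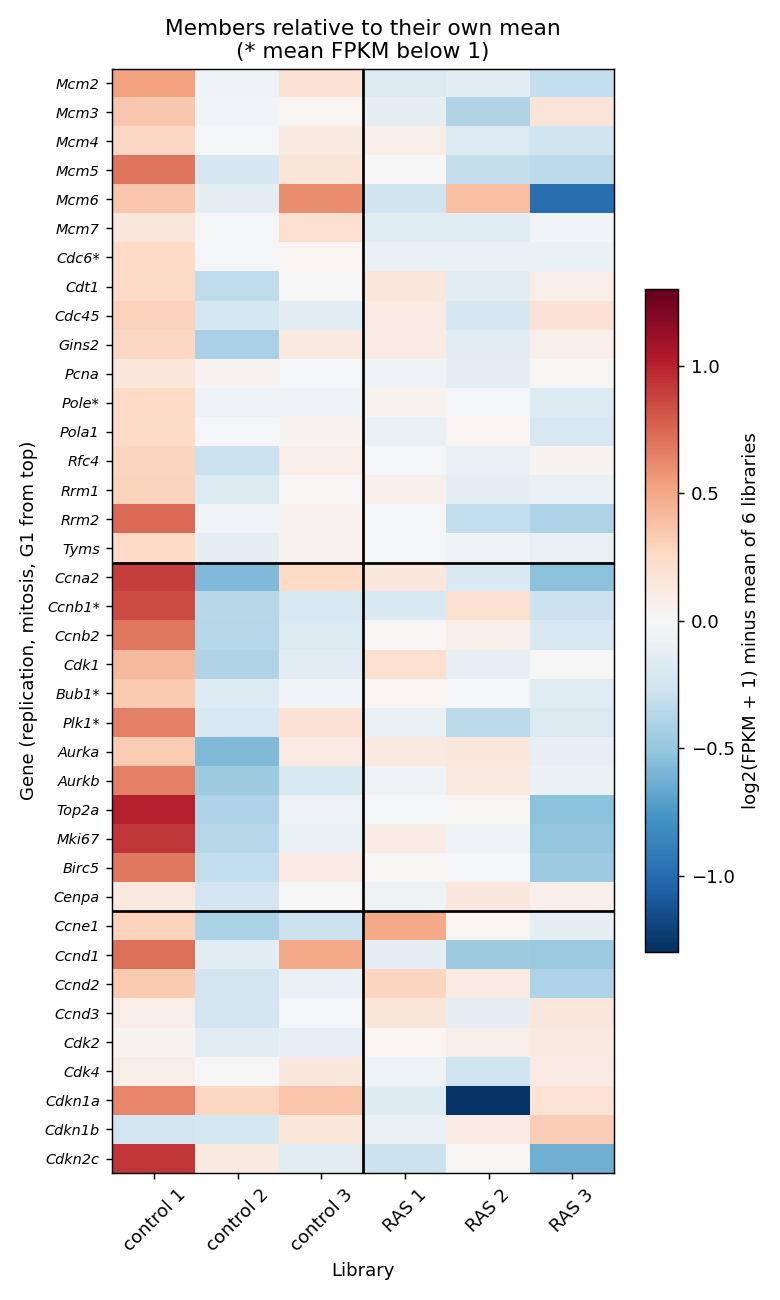
Log2(FPKM + 1) of each of the 38 genes minus its mean over 6 libraries, by library, with replication, mitosis and G1 genes from top to bottom (a star marks a mean below 1 FPKM). The column of control 1 is red through nearly all replication and mitosis genes. Control 2 is the lowest library for 8 of 12 mitosis genes, and RAS 3 is the lowest for 8 of 17 replication genes.

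G1 genes were the most abundant of the set and held the members furthest apart between groups, Ccnd1 and Cdkn1a. Of 9 tested, 5 had a negative and 4 a positive difference, with a median of -0.01, and 57.0% of all genes tested were negative. The median was 0.15 without control 1 and 0.03 after division by median-ratio size factors. Ccnd1, cyclin D1, which couples growth signals to Cdk4, was at 12.9, 6.67 and 10.9 FPKM in control and 6.76, 5.14 and 5.05 with RAS, 10.2 ± 3.19 and 5.65 ± 0.962 (SD, n = 3 each). The highest RAS library, RAS 1, reached just past the lowest control, control 2. The difference was -0.71 ± 0.23 (limma adjusted p = 0.386), and -0.53 without control 1.

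The other D-type cyclins did not share that difference. Ccnd2 was at 56.1, 37.2 and 41.6 FPKM in control and 53.7, 47.4 and 33.2 with RAS (log2 -0.01 ± 0.22), and Ccnd3 at 73.4, 57.7 and 68.4 and at 77.3, 62.8 and 76.2 (log2 0.12 ± 0.15). The difference of Ccnd3 lay between 0.018 without control 2 and 0.21 without RAS 2. The sign of Ccnd2 turned to 0.03 with median-ratio size factors. Both share their loci with other genes of the table, Ccnd3 with Bysl. In every library the order was Ccnd3, then Ccnd2, then Ccnd1. Ccnd1 made up 9.06, 6.57 and 9.02% of the summed D-type cyclin FPKM in the controls and 4.91, 4.45 and 4.42% with RAS, so each RAS share lay below each control share. That share was looked at after the values were seen.

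Ccne1, cyclin E1 of the entry into S phase, was at 2.27, 0.992 and 1.18 FPKM in control and 2.74, 1.71 and 1.43 with RAS (log2 0.26 ± 0.24, limma adjusted p = 0.733), and its difference was 0.083 without RAS 1, 0.12 without control 2 and 0.48 without control 1. Its partner Cdk2 was steady at 8.57 to 9.83 in control and 9.76 to 10.5 with RAS (log2 0.15 ± 0.10). Cdk4, the partner of D-type cyclins, was at 44.5, 42.3 and 46.3 in control and 40.1, 35 and 45.5 with RAS (log2 -0.15 ± 0.13; -0.053 without RAS 2 and -0.24 without RAS 3), and exceeded Cdk2 by 3.41 to 5.25 times in each library.

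Cdkn1a, the inhibitor p21 that p53 induces, was at 53.8, 41.5 and 44.1 FPKM in control and 30.3, 13.6 and 38.8 with RAS, 46.4 ± 6.49 and 27.6 ± 12.9 (SD, n = 3 each). All RAS libraries lay below all controls, RAS 2 far below and RAS 3 near. The difference was -0.84 ± 0.35 (limma adjusted p = 0.471), the largest in size among the 33 tested genes. RAS 2 carried much of it, and the difference was -0.42 without that library. Over the alternatives tried it lay between -1.14 and -0.42, with an adjusted p of 0.327 to 0.672. The gene lies at chr17:29090985-29100722 in the table, on a locus shared with no other gene.

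Cdkn2c, p18, which blocks Cdk4 and rises as precursors become fat cells, was the most abundant of the 38 genes in 4 of 6 libraries; Ccnd3 was in RAS 1 and RAS 3. It was at 160, 90.3 and 74.9 FPKM in control and 68.2, 83.9 and 53.2 with RAS (log2 -0.60 ± 0.30, limma adjusted p = 0.541). Control 1 was again the highest, and RAS 2 lay above control 3. The difference was -0.29 without control 1, and -0.12 without control 1 and RAS 3 together. Cdkn1b, p27, an inhibitor of resting cells, leaned the other way, at 11.4, 11.5 and 15.1 and at 12.7, 14.8 and 17.3 (log2 0.22 ± 0.16, limma adjusted p = 0.660), and its difference was 0.12 without RAS 3 and 0.35 without control 3. The 3 inhibitors together summed to 225, 143 and 134 FPKM in control and to 111, 112 and 109 with RAS. Cdkn2c, whose groups overlapped, made up 48.7 to 74.7% of that sum.

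**Figure D4:**
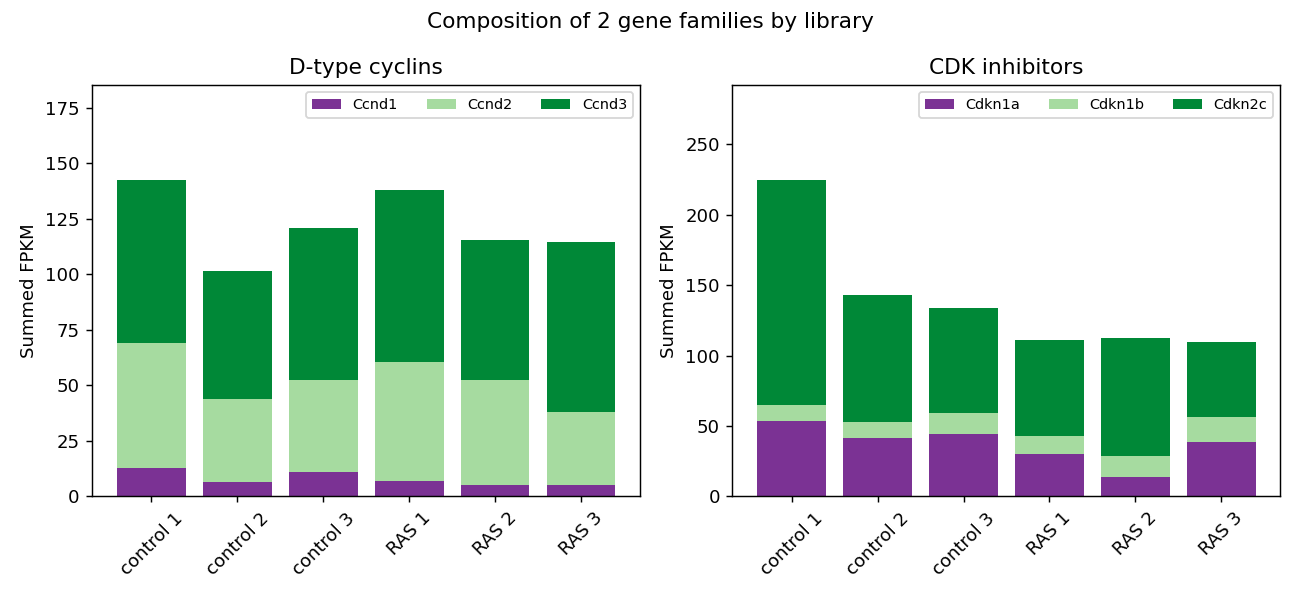
Summed FPKM of the D-type cyclins Ccnd1, Ccnd2 and Ccnd3 (left) and of the inhibitors Cdkn1a, Cdkn1b and Cdkn2c (right) in each library, as stacked bars from 0. The Ccnd1 part is 6.57 to 9.06% in control and 4.42 to 4.91% with RAS. The inhibitor sum is 134 to 225 FPKM in control and 109 to 112 with RAS, and 48.7 to 74.7% of it is Cdkn2c.

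Further genes of the same pathways held no gene past the test either. Of 36 tested replication genes outside the set, 29 had a negative and 7 a positive difference (median -0.14), and 0 passed over all genes. Over all genes tested, 57.0% were negative. Without control 1 the negative count was 24 of 36, against 54.2% of all genes. With median-ratio size factors it was 25 of 36, against 49.9%. At an unadjusted p under 0.05 were 4 lower and 1 higher, 13.9% of the 36 against 10.3% of all genes (6.41% lower and 3.86% higher). Pold2, a subunit of polymerase delta, was at 9.85, 6.97 and 7.49 FPKM in control and 5.25, 4.66 and 5.26 with RAS (log2 -0.58 ± 0.14, limma adjusted p = 0.283). Uhrf1, which carries DNA methylation through replication, was at 3.28, 1.5 and 1.80 and at 1.3, 0.853 and 0.930 (log2 -0.62). Prim1, the primase, stood at -0.37, and the GINS subunit Gins4 was on the higher side at 16.6 to 19.0 and 20.7 to 23.0 FPKM (log2 0.26).

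Other mitosis genes also had their highest values mostly in control 1. Control 1 was the highest library for 44 of the 50 listed and 20 of the 25 tested, against 30.0% of all genes tested. Of 25 tested, 22 had a negative difference (median -0.21), against 57.0% of all genes. Without control 1 the count became 12 of 25 with a median of 0.01, against 54.2%. Without control 1 and RAS 3 together it was 10 of 25 with a median of 0.05, against 55.4%. Lmnb1, lamin B1 of the nuclear envelope, was at 6.95, 5.06 and 6.85 FPKM in control and 4.46, 4.12 and 4.22 with RAS (log2 -0.46, limma adjusted p = 0.350). Cenpt, a centromere protein, had groups apart at 3.47 to 3.52 and 2.43 to 2.90 (log2 -0.30), and the condensin subunit Smc2 stood at -0.40. Groups were apart for 16.0% of the 25, against 17.9% of all genes. Cdc25b, the phosphatase that activates Cdk1, was on the higher side, at 4.65, 2.91 and 3.10 and at 5.0, 5.97 and 6.11 (log2 0.57, limma adjusted p = 0.350).

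**Figure D5:**
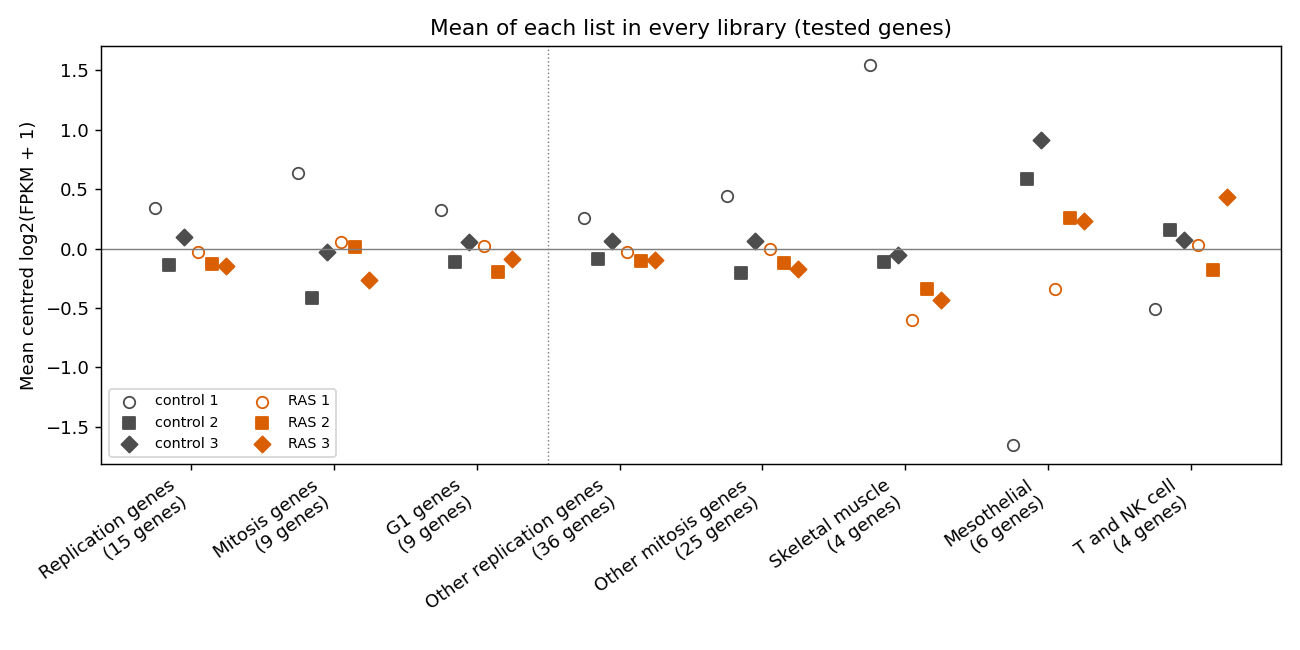
Mean over the tested genes of each list of log2(FPKM + 1) minus the gene's own mean, by library, for the 3 groups of the set (left of the dotted line), the further replication and mitosis genes, and 3 marker lists. Control 1 is the highest point for the 5 cell-cycle lists and skeletal muscle and the lowest for the mesothelial and T and NK cell lists.

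Regulators of Rb and E2F were split, with 12 negative and 13 positive of 25 (median 0.01), where 57.0% of all genes tested were negative. Those with the smallest p were Cdkn2b, the inhibitor p15 of Cdk4, at 10.4, 8.50 and 9.09 FPKM in control and 6.82, 5.54 and 6.55 with RAS (log2 -0.50 ± 0.12, limma adjusted p = 0.283), and Myc, a growth factor response gene, at 8.96, 10.3 and 10.8 and at 6.10, 6.39 and 7.77 (log2 -0.51 ± 0.13, limma adjusted p = 0.285). For both, all RAS libraries lay below all controls. Groups were apart for 20.0% of the 25, against 17.9% of all genes. E2f4, the E2F that acts mainly as a repressor in resting cells, stood at -0.32, and the inhibitor Cdkn2d, p19, at 0.32.

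Of p53 and its targets, the group to which Cdkn1a belongs by function, 15 of 22 were negative and 7 positive (median -0.12). Over all genes tested, 57.0% were negative (median -0.04). Trp53 itself was at 18.4, 17.4 and 16.5 FPKM in control and 14.4, 13.6 and 13.5 with RAS (log2 -0.31 ± 0.10, limma adjusted p = 0.385), with no overlap. Plk2 (log2 -0.39), Zmat3 (-0.25) and the death factor Bax (-0.28) came next by p. Groups were apart for 13.6% of the 22, against 17.9% of all genes. An unadjusted limma p under 0.05 was reached by 4.55% of the 22, against 10.3%. The well-known targets Mdm2 and Ccng1, added after their values were seen, stood at -0.04 and -0.02. RAS 2, the lowest library for Cdkn1a, was the lowest for 7 of 24 genes of the list, against 17.7% of all genes tested. Control 1 was the lowest for 7 as well, against 14.0%, and RAS 3 for 6, against 25.7%. Without RAS 2 the split was 11 negative and 11 positive.

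Summed markers of most other cell types that can divide overlapped between the groups. Macrophage markers summed to 361 to 570 FPKM in control and 440 to 581 with RAS, endothelial markers to 445 to 527 and 393 to 566, and fibroblast and preadipocyte markers to 930 to 1803 and 1077 to 1426. B and plasma cell markers summed to 7.43 to 14.8 and 8.24 to 12.8, and epithelial and mammary markers to 1.21 to 12 and 4.51 to 11.6. Summed neutrophil markers lay lower in control, at 4.49 to 9.16 against 10.6 to 20.2 with RAS. Only 3 of the 7 genes found were tested, all 3 with a positive difference and 0 with groups apart. In RAS 1 the sum of 17.2 was mostly S100a8 (15.5), while S100a9 had its lowest value there (0.482). Summed smooth muscle and pericyte markers lay higher in control, at 397 to 523 against 310 to 380 with RAS. As a mean of log2(FPKM + 1), with each gene's own mean taken off, they overlapped, at -0.067 in control 1 and 0.025 in RAS 2. Groups were apart for 1 of these 8 genes (12.5%), against 17.9% of all genes. Summed skeletal muscle markers also lay higher in control, as given above, with groups apart for 1 of the 4 tested. The fat cell sum lay higher with RAS, but Fabp4 made up most of it in every library. Of the 8 fat cell genes 7 had a positive and 1 a negative difference, where 57.0% of all genes tested were negative. Groups were apart for 3 of the 8 (37.5%), all higher with RAS. Of all genes 17.9% had groups apart, and 5.42% were apart and higher. The mean of log2(FPKM + 1) over the 8 fat cell genes, with each gene's own mean taken off, overlapped between the groups. It was 0.13, -0.18 and -0.23 in controls 1, 2 and 3 and 0.14, 0.04 and 0.11 with RAS. The part of all these lists in the lower means of Ccnd1, Cdkn1a and the MCM genes was not tested. Red blood cell markers summed to 670 to 1255 in control and 1142 to 2772 with RAS.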

How the data were processed

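The authors deposited 1 table with FPKM per gene for each library; the submitters' processing notes list TopHat2 2.0.9 and Cufflinks 2.1.1. No build, annotation or filter is stated in the labels. The loci of the table overlapped the GENCODE M21 (GRCm38) gene of the same Ensembl identifier for 99.67% of 18403 genes, and 7 of the 38 members share a locus with another gene, so reads of neighbours may be mixed. The authors also deposited a per-gene count signal, scaled by 1 value per sample, in which 98.82 to 98.96% of nonzero values came within 0.02 read of a whole number of reads; it served as depth and as an alternative, with no count model. Columns named after the RAS group in the treatment protocol were taken as RAS, the other numbered 3 as control by elimination. The 4 columns that hold 1 value for a whole group were left out.

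Testing covered genes averaging 1 FPKM or more, with limma 3.58.1 (trend, two-sided, Benjamini-Hochberg, threshold 0.05; R 4.3.3) on log2(FPKM + 1), a scale that understates changes of low genes. The code was tested on simulated data. The members and lists were chosen with earlier results of these data known. Named genes were, in each group, those with the smallest p, all at p under 0.05 or with groups apart, the usual proliferation markers, the D-type cyclins and inhibitors, and up to 4 per further list by p. Sequences are from RefSeq (GRCm38.p6). Python 3.11.15, pandas 2.3.3, numpy 2.4.6 and matplotlib 3.10.9 were used.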

Additional observations from a re-analysis of the deposited data

How the results depend on the processing

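Fold directions of single genes rest on 3 libraries a group, and low mitosis genes on few reads. Across 15 alternatives, 440 of 474 values of the 33 tested members kept their sign, 34 reversed and 0 crossed the adjusted threshold. With single libraries left out, the median difference was -0.23 to -0.10 for replication, -0.29 to 0.17 for mitosis and -0.15 to 0.15 for G1 genes. The same settings gave 0 to 2 genes over the whole table, 1 to 6 of 33 members at an unadjusted p under 0.05 (3.03 to 18.2%, against 7.83 to 10.8% of all genes) and 6 to 13 members with groups apart (18.2 to 39.4%, against 26.6 to 30.7%, since fewer libraries overlap less often). Both highest member counts came without control 2, where all genes gave 7.83 and 26.6%. Without control 1 and RAS 3 the counts were 3 genes over the whole table and 15 members apart (45.5%, against 46.5% of all genes); members apart were 5 with quantile normalization, 5 with median-ratio size factors and 5 with scaled counts (15.2% each, against 17.1 to 17.2%). Signs reversed without control 1 and RAS 3 for Birc5 (0.10), Ccna2 (0.13), Ccnb2 (0.32), Ccnd2 (0.35), Mki67 (0.25), Rfc4 (0.040), Rrm1 (0.056), Top2a (0.24) and Tyms (0.0087), for Ccnd2 with median-ratio size factors (0.032) and scaled counts (0.045), and for Gins2 with scaled counts (-0.011). With single libraries left out the ranges that crossed 0 were Aurka -0.17 to 0.28, Aurkb -0.23 to 0.33, Ccnb2 -0.29 to 0.24, Ccnd2 -0.16 to 0.18, Cdc45 -0.050 to 0.21, Cdk1 -0.10 to 0.30, Cdt1 -0.10 to 0.19, Cenpa -0.018 to 0.17, Gins2 -0.19 to 0.16, Mki67 -0.57 to 0.079, Rfc4 -0.21 to 0.070, Rrm1 -0.20 to 0.036 and Top2a -0.64 to 0.062. The cause was not tested. With the replicate number as a block, 6 of 33 members (18.2%) had an unadjusted p under 0.05, against 1663 genes (13.2%) over the whole table, of which 0 passed after adjustment. Same-numbered libraries deviated together with r = 0.18, 0.10 and 0.22, each the highest of its library, but 1 pair was under 0.1 before rounding and the labels do not say that numbers pair the mice. The edgeR test on recovered reads was not run, since the deposited signal did not pass as whole reads. No mitosis gene reached a mean of 5 FPKM, so that setting gives no median for them.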
